A study of Mus musculus with 42 samples.

Results

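The genes described here encode Nodal, the activin subunit inhibin beta B (Inhbb), the related ligands Gdf3 and Bmp4, the co-receptor Tdgf1 (Cripto), and the secreted inhibitors Lefty1, Lefty2 and follistatin (Fst). They were chosen by symbol from the count tables of both experiments. Of the 9 genes named, 8 had a row in each table, out of 18825 genes in experiment 1 and 19866 in experiment 2, and all 8 passed the filter on low counts. The inhibin beta A gene, Inhba, is not analysed here.

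The data are RNA immunoprecipitation sequencing (RIP-seq) of mouse embryonic stem cells. Tnrc6a, a GW182-family protein that Argonaute proteins bring to mRNAs bound by microRNAs, carried an HA-AVI tag, and RNA was sequenced from lysate (input) and from anti-HA beads (IP). Experiment 1 held untagged cells, tagged cells and tagged cells labelled Trim71KO (Trim71-/-), and experiment 2 added tagged cells labelled Ago2KO (Ago2-/-). All of them, controls included, were 129S6/SvEvTac cells with the yGlob GFP_5xT71BS reporter and stable FLAG-Cas9::T2A::Blasticidin, kept in serum and LIF on gelatin. Each group was 3 dishes, giving 42 libraries in 14 groups, and the labels do not say whether a genotype is 1 clone or several. The p-values therefore measure the spread between dishes. Trim71 is an RNA-binding protein that lowers target mRNAs, and Ago2 belongs to the Argonaute family. The comparisons address whether these RNAs are held by Tnrc6a and whether that depends on Trim71 or Ago2.

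Nodal, activin and Gdf3 bind activin receptors, which phosphorylate Smad2 and Smad3; Nodal and Gdf3 also need Tdgf1 as co-receptor. Lefty1 and Lefty2 are secreted antagonists that are themselves induced by Nodal signalling, forming a negative feedback, and follistatin binds and neutralises activin. Bmp4 acts through the separate Smad1 and Smad5 branch, which together with LIF sustains mouse embryonic stem cells in serum. Inhbb mRNA is a reported Trim71 target, and Lefty mRNAs are reported targets of the microRNAs of the miR-290 and miR-302 clusters that embryonic stem cells express.

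The mature microRNAs of the RefSeq set searched that carry the seed of that family, bases 2 to 8, are shown. They are shown because Lefty mRNAs are reported targets of that family. Capitals mark the seed, and the set may not hold every member of the family. In RefSeq (GRCm38.p6), 5 of 1679 mouse mature microRNAs carried AAGUGCU at these positions. The first pair lies on chromosome 3 and the other three on chromosome 7.
mmu-miR-302b-3p: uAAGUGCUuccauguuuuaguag
mmu-miR-302d-3p: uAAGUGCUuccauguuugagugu
mmu-miR-291a-3p: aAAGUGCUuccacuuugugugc
mmu-miR-294-3p: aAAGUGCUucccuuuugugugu
mmu-miR-295-3p: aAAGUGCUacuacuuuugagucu
MicroRNA levels were not measured in these libraries, and target sites in the mRNAs were not searched for.

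RefSeq promoter windows, 250 bases before to 50 after the start, matched 4 of the 8 measured genes, namely Nodal, Inhbb, Tdgf1 and Bmp4. They were searched on both strands for the Smad motif CAGAC and the Foxh1 motif AATNNACA, which share no position in these windows. CAGAC was present in 49.6% of the 32851 windows of all genes and AATNNACA in 12.2%. The Tdgf1 window held 1 CAGAC and 2 copies of AATNNACA, in capitals below, and the Nodal, Inhbb and Bmp4 windows held neither. Tdgf1 is shown for these matches, and Inhbb and Bmp4 because their input RNA was higher in Trim71KO cells of both experiments, as described further on.
Tdgf1, chr9:110946109-110946408, minus strand: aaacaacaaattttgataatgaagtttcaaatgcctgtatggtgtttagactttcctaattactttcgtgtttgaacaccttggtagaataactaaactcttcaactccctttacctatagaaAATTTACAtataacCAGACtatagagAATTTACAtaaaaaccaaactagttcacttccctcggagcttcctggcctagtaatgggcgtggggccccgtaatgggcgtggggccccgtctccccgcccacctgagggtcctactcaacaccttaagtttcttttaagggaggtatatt
Inhbb, chr1:119422199-119422498, minus strand: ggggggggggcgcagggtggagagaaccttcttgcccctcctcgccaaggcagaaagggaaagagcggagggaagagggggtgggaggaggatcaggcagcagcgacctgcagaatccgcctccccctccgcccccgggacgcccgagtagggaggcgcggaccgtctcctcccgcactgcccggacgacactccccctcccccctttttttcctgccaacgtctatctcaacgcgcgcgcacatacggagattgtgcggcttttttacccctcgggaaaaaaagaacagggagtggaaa
Bmp4, chr14:46390620-46390919, minus strand: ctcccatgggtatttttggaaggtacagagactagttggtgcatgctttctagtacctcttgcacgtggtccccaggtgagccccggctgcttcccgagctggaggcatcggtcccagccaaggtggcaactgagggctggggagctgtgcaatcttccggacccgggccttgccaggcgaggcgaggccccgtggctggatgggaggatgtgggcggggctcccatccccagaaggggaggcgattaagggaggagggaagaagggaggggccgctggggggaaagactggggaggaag
A match is a run of letters, not a measured binding site.

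Library totals ran from 12587257 to 23657840 counts in experiment 1 and from 16296447 to 21026552 in experiment 2. Tnrc6a mRNA, which checks the tag, was at 0.907-fold of input on the beads of untagged cells and 294-fold in tagged cells of experiment 1, and at 0.863-fold and 206-fold in experiment 2. Ago2 input RNA was lower in Ago2KO cells, whereas Trim71 input RNA was higher under the Trim71KO label (241 to 282 CPM and 282 to 377 CPM on average). The RNA level therefore does not check that label, and Trim71KO stands below for the libraries so labelled. On the beads, recovery of Trim71 mRNA relative to input was lower in those libraries than in tagged cells (-1.75 and -1.02, log2). It was lower in Ago2KO cells as well (-0.58, SE 0.12), so a lower value is not particular to the Trim71KO label. All 9 embryonic stem cell markers examined (Pou5f1, Sox2, Nanog and others) were present, at 6387 to 8506 CPM (counts scaled to library size) summed over the list in input. The lowest agreement of a library with its group was 0.980 (mean Pearson r of log2 CPM, Trim71KO IP replicate 1 of experiment 1).

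In unperturbed tagged cells the co-receptor was by far the most abundant of these RNAs and the extracellular inhibitors the least. On a scale of input CPM per kilobase of the gene length in the tables, Tdgf1 stood at 401 ± 41.0 in experiment 1 and 664 ± 17.0 in experiment 2 (mean ± SD, n = 3, as for all such values below). Inhbb followed at 54.0 ± 3.16 and 53.3 ± 3.89, then Gdf3 at 23.5 ± 0.990 and 13.6 ± 0.581. Bmp4 was at 13.2 ± 0.872 and 12.3 ± 0.479, and Nodal at 11.9 ± 1.36 and 7.98 ± 0.625. The ranges of Bmp4 and Nodal overlapped in experiment 1 and were apart in experiment 2. Lefty2 stood at 2.54 ± 0.765 and 4.26 ± 0.273, Lefty1 at 1.43 ± 0.156 and 1.46 ± 0.103, and Fst at 0.887 ± 0.162 and 0.374 ± 0.0632 CPM per kilobase. The order was the same in both experiments, and the ranges of all other neighbours in it were apart. The input level of every gene in every library is plotted below as CPM.

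**Figure D1:**
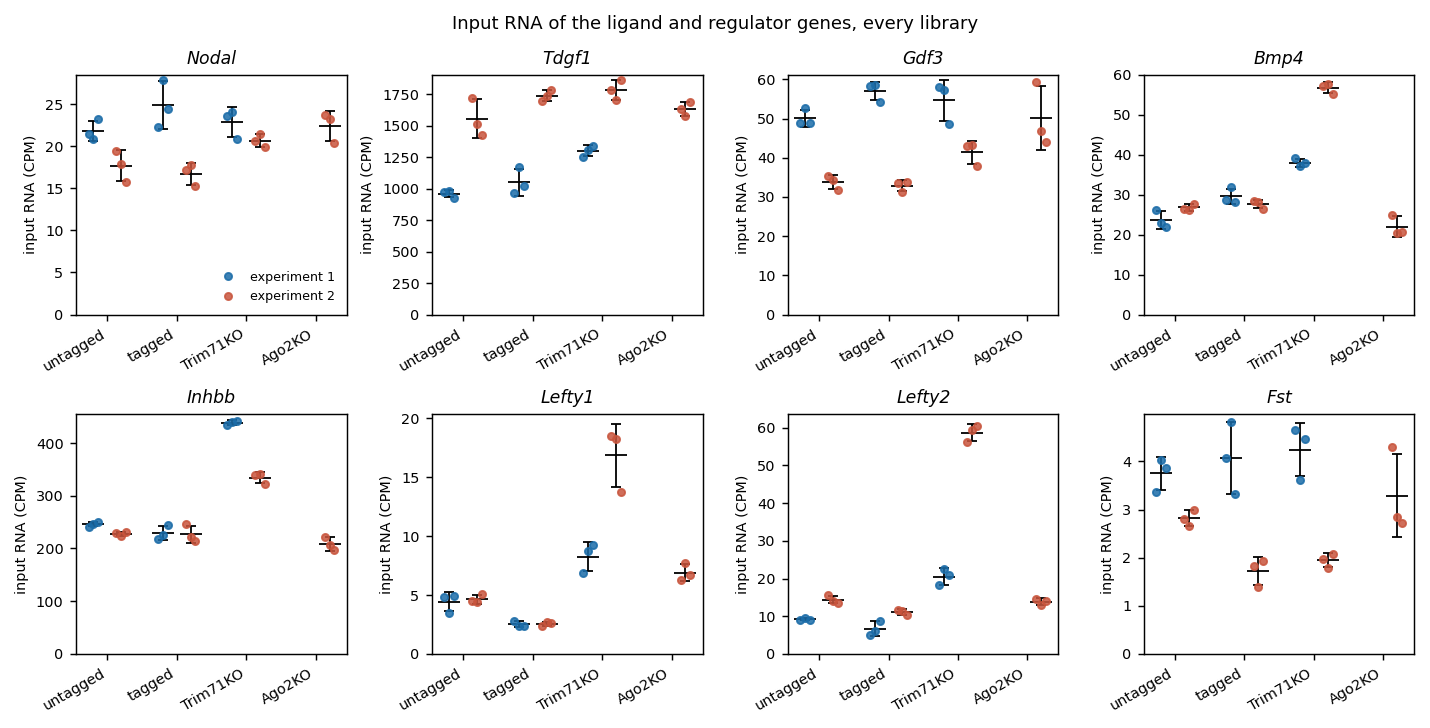
Input RNA in CPM (y axis, from 0) of the 8 genes in each genotype (x axis), with 1 point per library, horizontal bars for the mean and whiskers for the SD (n = 3), and colours for the experiments. Lefty1, Lefty2, Inhbb and Bmp4 stand higher in Trim71KO than in tagged cells in both experiments with no overlap. Lefty1, Lefty2, Gdf3, Nodal and Fst stand higher in Ago2KO than in tagged cells of experiment 2 with no overlap. Bmp4 and Tdgf1 stand lower there, also with no overlap. The share of all genes without overlap is not given here.

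Recovery with tagged Tnrc6a split these genes by identity. The mRNAs of Inhbb, Lefty1 and Lefty2 were enriched on the beads in both experiments, whereas those of Nodal, Tdgf1, Gdf3, Bmp4 and Fst were not. Tag-specific association compares IP with input on the log2 scale, tagged cells minus untagged cells, and a gene was called at an adjusted p under 0.05. In experiment 1, 3 of the 8 genes were called higher and 2 lower, where 56.9% of all genes tested were called, 28.1% higher and 28.8% lower. In experiment 2, 3 were called higher and 0 lower, where 27.7% of all genes were called, 18.9% higher and 8.77% lower. With scaling by library size alone that experiment gave 3 higher and 3 lower (Bmp4, Gdf3 and Tdgf1), and 39.6% of all genes called, of which 36.5% were higher against 68.4% of the main calls. The median gene then stood at -0.24 on the log2 scale in place of -0.03.

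Inhbb, one of the activin subunit genes, showed the largest recovery. On the beads of experiment 1 it stood at 190, 198 and 193 CPM in untagged cells and at 3131, 2666 and 2903 CPM in tagged cells. It then ranked between 8 and 11 among all genes of the tagged IP libraries and took 0.234% to 0.270% of their counts. In experiment 2 the IP libraries held 211, 213 and 202 CPM in untagged and 1420, 1006 and 834 CPM in tagged cells. The tagged libraries were above the untagged ones without overlap in both experiments. Mean input was 246 and 230 CPM in untagged and tagged cells of experiment 1 and 228 and 227 CPM in experiment 2. Tag-specific association of Inhbb was 4.01 (log2, SE 0.17, adjusted p = 1.02e-15) in experiment 1 and 2.39 (SE 0.21, adjusted p = 4.99e-10) in experiment 2. In experiment 1, 249 of 18772 genes had a larger value, and in experiment 2, 404 of 19778. The difference between experiments, 2 minus 1, was -1.72 (SE 0.29, adjusted p = 3.80e-05), the only call among the 8, where 28.5% of all genes were called. No difference between the experiments other than the dishes and libraries is given in the labels, and its source was not tested.

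The Lefty antagonists came next. In experiment 1, Lefty1 stood at 4.81, 3.59 and 3.62 CPM in untagged IP and at 24.7, 19.4 and 17.7 CPM in tagged IP. The experiment 2 values were 4.87, 4.87 and 5.06 CPM untagged and 16.4, 10.9 and 11.4 CPM tagged. Every tagged IP library was thus above every untagged one, although tagged input was the lower of the inputs. Its tag-specific association was 3.19 (SE 0.28, adjusted p = 7.00e-10) and 2.24 (SE 0.28, adjusted p = 3.36e-07) in experiments 1 and 2. Lefty2 IP levels were 8.36, 8.31 and 7.44 CPM untagged and 29.2, 21.7 and 25.9 CPM tagged in experiment 1. In experiment 2 they were 12.7, 12.7 and 13.0 CPM untagged and 36.4, 27.9 and 26.0 CPM tagged. Again the groups did not overlap, and association was 2.13 (SE 0.24, adjusted p = 9.05e-08) and 1.60 (SE 0.19, adjusted p = 1.01e-07). The differences between experiments were not called for Lefty1 (-1.06, SE 0.42, adjusted p = 0.0576) or Lefty2 (-0.62, SE 0.32, adjusted p = 0.146). For Lefty1 the call turned with library size alone (-1.20), DESeq2 (-1.02), a replicate block (-1.06) and in 5 leave-one-out fits (-1.27 to -1.14). For Lefty2 it turned without tagged input replicate 3 of experiment 1 (-0.81, adjusted p = 0.0465) or tagged IP replicate 1 of experiment 2 (-0.79, adjusted p = 0.0492).

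The genes that were not enriched include the ligand Nodal itself. Nodal stood at 17.4, 17.1 and 15.0 CPM in tagged IP and 16.0, 18.7 and 15.2 CPM in untagged IP of experiment 1, and the ranges overlapped. In experiment 2 it was at 17.1, 15.7 and 16.3 CPM tagged and 18.0, 16.7 and 17.4 CPM untagged, again overlapping. Its association was -0.20 (SE 0.18) in experiment 1 and 0.00 (SE 0.13) in experiment 2. The Nodal-related ligand Gdf3 was lower on the beads of tagged cells in experiment 1, at 31.6, 31.9 and 28.3 CPM against 41.8, 48.4 and 45.0 CPM untagged. Its association fell by 0.75 (SE 0.14, adjusted p = 5.99e-05), and in experiment 2 its value of -0.33 (SE 0.13, adjusted p = 0.0605) missed the threshold but passed it in 6 of 7 other settings, among them the block that pairs IP with input (adjusted p = 0.0383). Bmp4 was at -0.34 (SE 0.14, adjusted p = 0.0443) in experiment 1, a call lost in 5 of 7 other settings and in 10 of 12 fits that left out a library (-0.40 to -0.23 over those fits, kept only without untagged input replicate 1 or tagged IP replicate 2). In experiment 2 Bmp4 was at -0.22 (SE 0.12). Tdgf1 was at -0.24 (SE 0.13) and -0.21 (SE 0.13). Fst, the least abundant, was at -0.50 (SE 0.29) and 0.58 (SE 0.44) with the widest SEs of the 8.

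Without the tag, the enriched genes were on the beads about in proportion to their input. In untagged cells the ratio of IP to input was 0.786-fold and 0.916-fold for Inhbb, 0.898-fold and 1.06-fold for Lefty1, and 0.876-fold and 0.888-fold for Lefty2 in experiments 1 and 2. By the same test 3 of the 8 genes were called in experiment 1, where 12.1% of all genes were called, with Fst higher at 1.04 (SE 0.20, adjusted p = 0.000996). Inhbb (-0.35, adjusted p = 0.0466) and Nodal (-0.39, adjusted p = 0.0487) were lower, calls lost in all 6 fits that each left out an untagged library (-0.38 to -0.35 and -0.49 to -0.33). With library size alone all 8 were called, 1 higher and 7 lower, while the median gene moved from -0.03 to -0.42 and 54.3% of genes were called. In experiment 2, 0 of 8 were called by edgeR or DESeq2 and 0 had an unadjusted p under 0.05, and 0.728% of all genes were called.

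**Figure D2:**
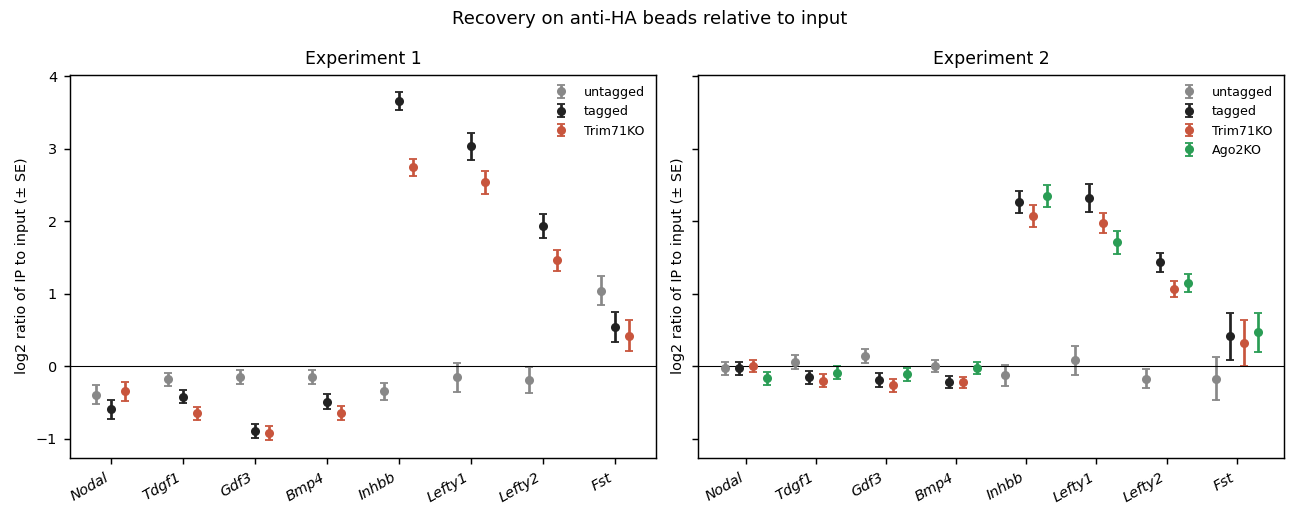
Fitted log2 ratio of IP to input RNA (y axis, ± SE) for the 8 genes (x axis) in experiment 1 (left) and experiment 2 (right), with colours for genotype. Inhbb, Lefty1 and Lefty2 stand well above 0 in tagged, Trim71KO and Ago2KO cells and near 0 in untagged cells, while Nodal, Tdgf1, Gdf3 and Bmp4 lie at or below 0 apart from single values near it.

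In the libraries labelled Trim71KO the recovery of Inhbb relative to its input was lower in experiment 1, and no other change among these genes was called in either experiment. Trim71-dependent association takes the same IP against input difference, Trim71KO minus tagged cells. For Inhbb it was -0.92 (SE 0.16, adjusted p = 0.000762) in experiment 1, the only call among the 8, where 3.74% of all genes were called. The ratio of IP to input went from 12.6-fold in tagged to 6.69-fold in Trim71KO cells. IP levels were 3600, 2837 and 2367 CPM in Trim71KO and 3131, 2666 and 2903 CPM in tagged cells, ranges that overlapped. Input levels were 218, 226 and 245 CPM in tagged and 434, 440 and 443 CPM in Trim71KO cells, without overlap. CPM is a share of each library and not an amount of RNA on the beads. The parts of binding and of RNA level in the lower ratio were not tested. Mean Inhbb input was 1.91 times that of tagged cells, and the mean IP level 1.01 times. In the same contrast Tnrc6a, the tagged gene, went from 294-fold to 162-fold of input in experiment 1 (-0.86, SE 0.24, adjusted p = 0.0476) and from 206-fold to 157-fold in experiment 2 (-0.40, SE 0.28, adjusted p = 0.542). The part of this in the Inhbb result was not tested.

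In experiment 2 the Trim71-dependent value of Inhbb was -0.19 (SE 0.20, adjusted p = 0.727), with ratios of 4.79-fold in tagged and 4.20-fold in Trim71KO cells. Its IP level there was 1479, 1408 and 1317 CPM in Trim71KO cells, overlapping the 1420, 1006 and 834 CPM of tagged cells. None of the 8 genes was called by edgeR (0) or DESeq2 (0), 1 had an unadjusted p under 0.05 (Lefty2), and 1.49% of all genes were called. Pairing the dishes by replicate number, which the data of these groups bear out, left 0 members called and moved the count over all genes from 295 to 470. The difference between the experiments was 0.73 for Inhbb (SE 0.28, adjusted p = 0.227), in a test that called 0.0967% of all genes and, with edgeR and DESeq2, 0 of the 8 (1 at an unadjusted p under 0.05). It was called without Trim71KO IP replicate 1 of experiment 1 (0.91, adjusted p = 0.0373) or tagged IP replicate 1 of experiment 2 (0.98, adjusted p = 0.0382). A lower IP to input ratio of Inhbb in the libraries labelled Trim71KO was thus called in experiment 1 and not in experiment 2, and the experiments were not shown to differ.

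Both Lefty mRNAs were still recovered in Trim71KO cells, at 5.81-fold and 3.93-fold of input for Lefty1 and 2.75-fold and 2.10-fold for Lefty2. Trim71-dependent association of Lefty1 was -0.49 (SE 0.25, adjusted p = 0.361) in experiment 1 and -0.35 (SE 0.24, adjusted p = 0.542) in experiment 2. That of Lefty2 was -0.47 (SE 0.22, adjusted p = 0.320) and -0.36 (SE 0.17, adjusted p = 0.299), the latter called without Trim71KO IP replicate 3 (-0.59, adjusted p = 0.0486). Their bead levels were higher together with their input. Lefty1 IP stood at 54.7, 51.1 and 39.1 CPM in Trim71KO cells of experiment 1 and at 57.8, 64.7 and 75.9 CPM in experiment 2, above every tagged library. Lefty2 IP stood at 67.8, 55.7 and 46.2 CPM in Trim71KO cells of experiment 1 and at 103, 114 and 152 CPM in experiment 2, likewise without overlap. The other 5 genes had Trim71-dependent values between -0.23 and 0.25, none of them called.

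**Figure D3:**
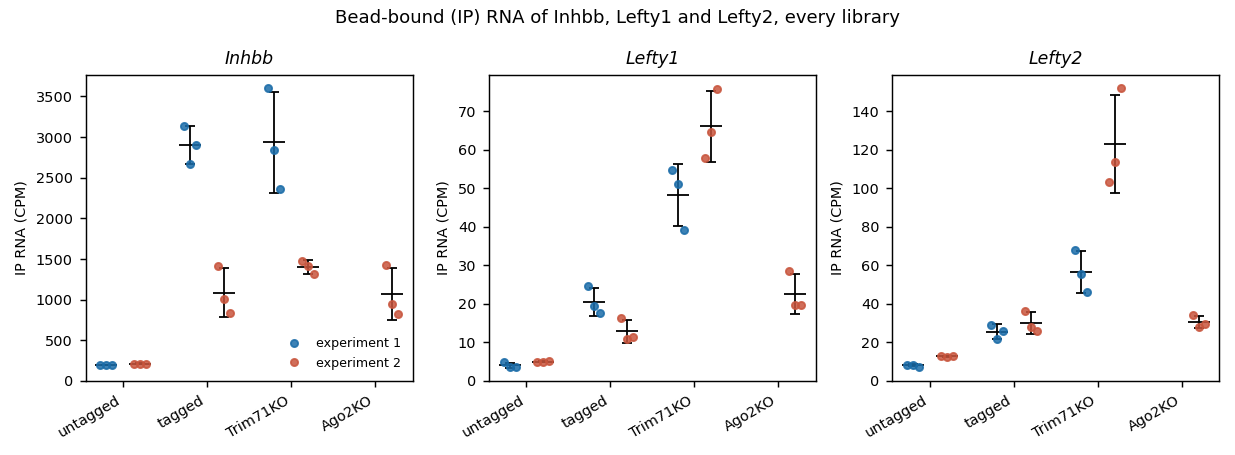
Bead-bound (IP) RNA in CPM (y axes, from 0) of Inhbb, Lefty1 and Lefty2 in each genotype (x axes), 1 point per library, with mean and SD (n = 3) and colours for the experiments. Inhbb reached about the same level in tagged and Trim71KO libraries of experiment 1 (means of 2900 and 2935 CPM), while Lefty1 and Lefty2 were higher in Trim71KO than in tagged libraries of both experiments.

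Inhbb was still recovered on the beads of Ago2KO cells. Its IP level there was 1429, 940 and 824 CPM, overlapping the tagged cells, and IP to input was 5.10-fold. The Ago2-dependent association of Inhbb was 0.09 (SE 0.20, adjusted p = 0.923). Lefty1 had the lowest value of the 8, -0.61 (SE 0.26, adjusted p = 0.253), as the ratio of IP to input went from 4.99-fold in tagged to 3.27-fold in Ago2KO cells. It was called without Ago2KO IP replicate 1 (-0.82, adjusted p = 0.0333). Lefty2 was at -0.29 (SE 0.18, adjusted p = 0.556). In this comparison edgeR and DESeq2 each called 0 of the 8, 1 (Lefty1) had an unadjusted p under 0.05, and 4.16% of all genes were called. Set directly against each other, association in Trim71KO and Ago2KO cells gave 0 calls by both tools and 0 at an unadjusted p under 0.05, where 11.8% of all genes were called. The differences there were -0.28 (SE 0.20) for Inhbb, 0.26 (SE 0.21) for Lefty1 and -0.08 (SE 0.17) for Lefty2.

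The level of these RNAs, as opposed to their recovery, moved more widely. In Trim71KO input of experiment 1, 5 of the 8 genes were higher than in tagged cells and 0 lower, where 34% of all genes were called and 16.5% were higher. In experiment 2, 6 were higher and 0 lower, where 27.2% were called and 13.5% were higher (9.33% with library size alone). Lefty1, Lefty2, Inhbb and Bmp4 were called higher in both. The median change of the 8 was 0.33 in experiment 1 and 0.44 in experiment 2, beside -0.01 over all genes tested in each.

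Both Lefty genes showed the largest rises. In experiment 1, Lefty1 input was 2.83, 2.35 and 2.36 CPM in tagged cells and 6.85, 8.72 and 9.21 CPM in Trim71KO cells. In experiment 2 it was 2.37, 2.72 and 2.61 CPM tagged and 18.5, 18.3 and 13.8 CPM in Trim71KO cells. The groups did not overlap, and Trim71KO libraries also lay above every untagged library (3.51 to 4.96 CPM and 4.36 to 5.09 CPM). Lefty1 rose by 1.72 (SE 0.20, adjusted p = 6.81e-07) and 2.71 (SE 0.19, adjusted p = 2.89e-11) on the log2 scale. A larger change was found for 228 of 18772 genes in experiment 1 and for 9 of 19778 in experiment 2. Lefty2 went from 4.98, 6.08 and 8.86 CPM to 18.2, 22.5 and 20.8 CPM in experiment 1, and from 11.6, 11.5 and 10.3 CPM to 56.2, 59.5 and 60.4 CPM in experiment 2. All Trim71KO libraries exceeded all tagged ones, by 1.62 (SE 0.17, adjusted p = 1.65e-07) and 2.40 (SE 0.13, adjusted p = 2.25e-13). In experiment 1, 272 genes had a larger change than Lefty2, and in experiment 2, 24.

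The rise of both Lefty genes was larger in experiment 2, in a test that called 5 of the 8 genes and 22.8% of all genes. The difference was 0.98 for Lefty1 (SE 0.30, adjusted p = 0.0161) and 0.78 for Lefty2 (SE 0.22, adjusted p = 0.00884; 0.55, adjusted p = 0.0699, without tagged input replicate 3 of experiment 1). The ratio of Lefty to Nodal RNA was higher as well. Per kilobase, Lefty2 input was 0.180, 0.175 and 0.291 times Nodal in tagged libraries of experiment 1 and 0.617, 0.750 and 0.799 times in Trim71KO libraries. In experiment 2 the ratio went from 0.540, 0.520 and 0.543 in tagged to 2.19, 2.22 and 2.44 in Trim71KO libraries. Lefty2 RNA thus went from below to above Nodal RNA in experiment 2 and stayed below it in experiment 1. Lefty1 reached 0.970 ± 0.128 times Nodal in Trim71KO input of experiment 2, from 0.184 ± 0.0202 in tagged cells. For activin and follistatin the inhibitor did not gain on the ligand. Inhbb was 62.6 ± 14.9 times Fst in tagged and 113 ± 16.1 times in Trim71KO input of experiment 1, without overlap. In experiment 2 it was 145 ± 26.5 and 186 ± 19.2 times, with overlap.

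Among the ligands, Inhbb rose by 0.93 (SE 0.11, adjusted p = 1.60e-06) in experiment 1, with the input values given above, and by 0.56 (SE 0.15, adjusted p = 0.00491) in experiment 2. There it stood at 246, 221 and 214 CPM in tagged and 340, 341 and 322 CPM in Trim71KO cells, without overlap. Bmp4 was at 28.7, 31.8 and 28.2 CPM in tagged and 39.1, 37.1 and 37.9 CPM in Trim71KO input of experiment 1. In experiment 2 it went from 28.4, 28.2 and 26.5 CPM to 57.3, 57.8 and 55.3 CPM, again with all Trim71KO libraries on top. The changes of Bmp4 were 0.36 (SE 0.10, adjusted p = 0.00556) and 1.04 (SE 0.08, adjusted p = 1.71e-10), and they differed by 0.67 (SE 0.12, adjusted p = 6.34e-05) between experiments. Unlike Inhbb and the Lefty genes, Bmp4 did not show enrichment on the beads.

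Smaller changes were called in 1 experiment each. Nodal rose by 0.31 (SE 0.09, adjusted p = 0.0101) in experiment 2, from 17.2, 17.7 and 15.2 CPM to 20.6, 21.5 and 19.9 CPM. That call was lost with library size alone (0.24, adjusted p = 0.0524) and without tagged input replicate 3 (0.24, adjusted p = 0.0742). Gdf3 rose by 0.33 (SE 0.09, adjusted p = 0.00764) in experiment 2, from 33.6, 31.3 and 33.8 CPM to 43.0, 43.2 and 37.9 CPM. In experiment 1 the values were -0.12 (SE 0.12) for Nodal and -0.06 (SE 0.09) for Gdf3, neither of them called. Their differences between experiments, 0.42 (SE 0.15, adjusted p = 0.0388) and 0.39 (SE 0.13, adjusted p = 0.0274), were lost with library size alone (0.31 and 0.28). They were also lost in 6 and 5 of 12 leave-one-out fits. For both genes this happened without tagged input replicate 2 or Trim71KO input replicate 3 of experiment 1, or without Trim71KO input replicate 1 or 2 of experiment 2. For Nodal the others were tagged input replicates 1 and 3 of experiment 2, and for Gdf3 tagged input replicate 2 (ranges 0.33 to 0.50 and 0.31 to 0.47). The co-receptor Tdgf1 rose by 0.31 (SE 0.09, adjusted p = 0.0106) in experiment 1, from 963, 1172 and 1022 CPM to 1255, 1308 and 1343 CPM, and stood at 0.04 (SE 0.09) in experiment 2. The Tdgf1 call was lost without tagged input replicate 1 (0.23) or 3 (0.27) and without Trim71KO input replicate 2 (0.29) or 3 (0.27). Fst was at 0.06 (SE 0.21) and 0.18 (SE 0.32).

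In Ago2KO input, Lefty1, Gdf3 and Nodal were higher and Bmp4 was lower than in tagged cells. In all, 4 of the 8 genes were called, 3 higher and 1 lower, where 6.96% of all genes were called, 4.38% higher and 2.57% lower. Lefty1 was at 6.29, 7.70 and 6.72 CPM, above the tagged libraries at 2.37 to 2.72 CPM and the untagged ones at 4.36 to 5.09 CPM. Its change against tagged cells was 1.43 (SE 0.20, adjusted p = 3.63e-05). Gdf3 rose by 0.60 (SE 0.09, adjusted p = 7.22e-05) to 59.3, 46.9 and 44.0 CPM, and Nodal by 0.42 (SE 0.09, adjusted p = 0.00266) to 23.7, 23.2 and 20.4 CPM. Neither of these overlapped its tagged group. Bmp4 fell by 0.34 (SE 0.08, adjusted p = 0.0106) to 25.0, 20.4 and 20.5 CPM, a call lost without Ago2KO input replicate 2 (-0.28, adjusted p = 0.0944) or 3 (-0.29, adjusted p = 0.0688). Lefty2 at 0.32 (SE 0.14, adjusted p = 0.175), Inhbb at -0.12 (SE 0.15), Tdgf1 at -0.09 (SE 0.09) and Fst at 0.92 (SE 0.30, adjusted p = 0.0656) were not called. Fst, at 4.29, 2.85 and 2.73 CPM against 1.83, 1.39 and 1.94 CPM tagged, did not overlap and was called with DESeq2 (adjusted p = 0.0329) and in a fit of those groups alone (adjusted p = 0.0106). Lefty2 was called in that last fit too (0.31, adjusted p = 0.0361).

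A direct comparison of Trim71KO with Ago2KO input called 5 of the 8, 4 higher and 1 lower in Trim71KO, where 28.4% of all genes were called, 13.2% higher and 15.1% lower. Lefty2 was higher in Trim71KO by 2.08 (SE 0.12, adjusted p = 1.49e-12), Bmp4 by 1.37 (SE 0.08, adjusted p = 1.14e-12) and Lefty1 by 1.28 (SE 0.16, adjusted p = 8.44e-07). Inhbb was higher by 0.68 (SE 0.15, adjusted p = 0.000803). Gdf3 was lower by a log2 change of -0.27 (SE 0.09, adjusted p = 0.0227), a call lost without Ago2KO input replicate 1 (-0.12) or Trim71KO input replicate 3 (-0.21). Nodal, at -0.12 (SE 0.09, adjusted p = 0.342), was not called. Fst, at -0.74 (SE 0.30, adjusted p = 0.0632), was not called either, although its groups did not overlap and a fit of those groups alone called it (-0.73, adjusted p = 0.0154). Both mutants share the tagged libraries as their reference.

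**Figure D4:**
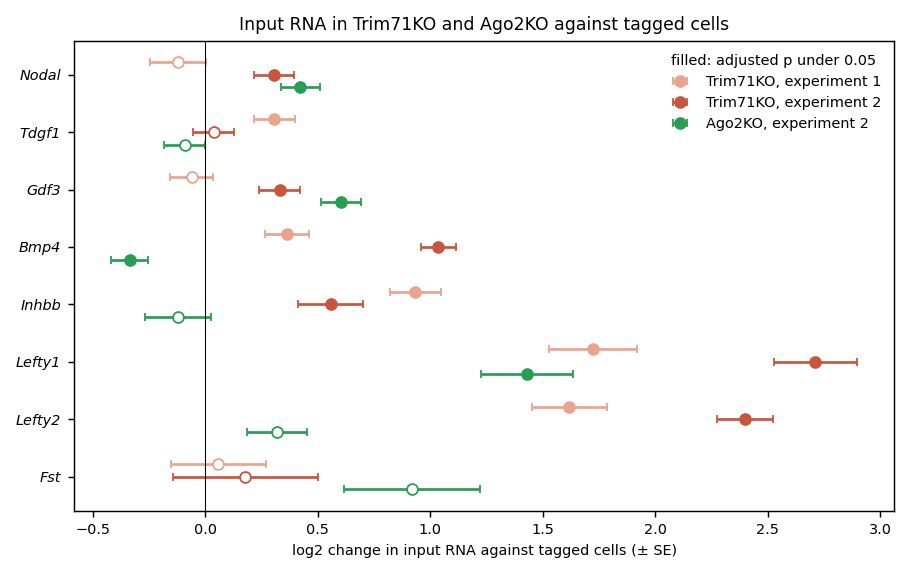
Log2 change in input RNA against tagged cells (x axis, ± SE) for the 8 genes (y axis) in Trim71KO cells of experiments 1 and 2 and Ago2KO cells of experiment 2, filled where the adjusted p was under 0.05. Lefty1 is filled and to the right of 0 in all 3 series, Lefty2, Inhbb and Bmp4 in both Trim71KO series, and Bmp4 lies to the left of 0 in Ago2KO cells.

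Lefty1 input also differed between tagged and untagged cells. In input of tagged against untagged cells, 2 of the 8 genes were called in experiment 1, where 10.6% of all genes were called, and 1 in experiment 2, where 1.39% were called. Lefty1 was lower in tagged cells, by -0.83 (SE 0.21, adjusted p = 0.0134) and -0.86 (SE 0.22, adjusted p = 0.0397), without overlap in either experiment. The first call was lost without untagged input replicate 1 (-0.73) or 3 (-0.73) or tagged input replicate 2 (-0.78) or 3 (-0.75). The second was lost with no filter on low counts (-0.84, adjusted p = 0.0538) and in all 6 fits that left out an untagged or tagged input library (-0.90 to -0.78). Bmp4 was higher in experiment 1 (0.32, SE 0.10, adjusted p = 0.0372), which was lost without untagged input replicate 2 or 3 or tagged input replicate 2 (0.32, 0.29 and 0.27), with library size alone (0.26) and in a fit of those groups alone (0.31). Lefty2 input was 0.724 and 0.772 times the untagged level in tagged cells, also without overlap, at -0.46 (SE 0.17, adjusted p = 0.0927) and -0.37 (SE 0.14, adjusted p = 0.213), neither called, the former passing without tagged input replicate 3 (-0.69, adjusted p = 0.0255). The changes of both Lefty genes in the mutants are measured against these tagged levels. Lefty2 in Ago2KO input, at 13.0 to 14.6 CPM, overlapped the untagged libraries at 13.6 to 15.6 CPM.

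Markers of another cell type moved along with the input changes. In Trim71KO input, 34% of all genes were called in experiment 1 (16.5% higher) and 27.2% in experiment 2 (13.5% higher). In Ago2KO input 6.96% were called (4.38% higher and 2.57% lower). Of 7 primitive endoderm markers (Gata6, Gata4, Sox17, Sox7, Pdgfra, Dab2 and Col4a1), 6 were lower in Trim71KO input of experiment 1 and 5 in experiment 2, and 4 were lower in Ago2KO. Their summed level went from 158 to 201 CPM in tagged to 82.8 to 87.2 CPM in Trim71KO input of experiment 1. In experiment 2 it went from 75.9 to 89.0 CPM in tagged to 46.9 to 55.4 CPM in Trim71KO and 37.4 to 43.8 CPM in Ago2KO input. Gata6 was under 1 CPM in Trim71KO input of both experiments, and Sox17 in Trim71KO and Ago2KO input of experiment 2. The primed epiblast list (Otx2, Pou3f1 and Dnmt3b, with Fgf5 not analysed here) summed to 136 to 145 CPM in tagged and 213 to 240 CPM in Trim71KO input of experiment 2, with 2 of 3 higher and Pou3f1 lower. In experiment 1 its ranges were 136 to 176 and 172 to 181 CPM. Of 5 fibroblast markers, the 2 with a row, Col1a1 and Thy1, rose in Trim71KO input of experiment 1 (22.6 to 24.5 CPM summed in tagged, 58.0 to 61.8 in Trim71KO). In experiment 2 Thy1 alone rose (34.2 to 35.8 and 49.5 to 51.9 CPM summed). Of the embryonic stem cell list, 3 of 9 were higher and 1 lower in Trim71KO input of experiment 1, 5 higher and 0 lower in experiment 2, and 4 higher and 1 lower in Ago2KO. Eomes was the mesoderm marker called higher and Sox1 the neural marker called lower in Trim71KO input of both experiments. Tfap2c, the trophoblast marker with a row, was lower in Trim71KO and higher in Ago2KO input of experiment 2. The part of these cells in the results was not tested, and in such bulk samples fewer cells of a type and less RNA per cell cannot be told apart.

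Other genes of the pathway were counted in the same input libraries, where 34% of all genes were called in Trim71KO of experiment 1 and 27.2% in experiment 2. Of 14 receptors and transducers listed, 13 were tested, and 5 were higher and 1 lower in Trim71KO input of experiment 1, and 4 higher and 1 lower in experiment 2. Foxh1, the DNA-binding partner of Smad2 and Smad3, rose by 0.78 (SE 0.12, adjusted p = 3.00e-05) and 0.75 (SE 0.10, adjusted p = 3.85e-06). Smad3 rose by 0.79 (SE 0.15) and 0.30 (SE 0.09), and the inhibitory Smad7 by 0.76 (SE 0.09) and 0.52 (SE 0.17). The median of the list was 0.08 and 0.01, close to the median gene. Of 12 processing and extracellular modulator genes listed, 9 were tested, and 2 were higher in experiment 1, and 1 was higher and 1 lower in experiment 2. Fstl1, a follistatin-like secreted protein, rose by 1.08 (SE 0.13) and 0.76 (SE 0.09).

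Reported targets of Nodal and activin and genes of the Bmp branch are read against the same shares, and against 6.96% of all genes called in Ago2KO input. Of 12 targets listed apart from the members, 3 were higher and 2 lower of 7 tested in Trim71KO input of experiment 1, and 4 higher and 0 lower of 9 in experiment 2, with medians of 0.01 and 0.33. Otx2, a transcription factor of the epiblast and anterior brain, rose by 0.61 (SE 0.11) and 1.22 (SE 0.07), and Eomes, a T-box factor of mesendoderm, by 0.67 (SE 0.18) and 0.38 (SE 0.11). In Ago2KO input 3 of 9 were higher, among them Gsc by 1.75 (SE 0.24, adjusted p = 2.74e-05) and Nanog by 0.33 (SE 0.06, adjusted p = 0.000759). Of 14 Bmp branch genes listed, 3 were higher and 1 (Id1) lower of 12 in Trim71KO input of experiment 1. In experiment 2, 2 were higher and 1 (Smad6) lower of 13. Id4 and Id3, Bmp target genes that encode inhibitors of bHLH factors, rose by 1.27 (SE 0.24) and 0.58 (SE 0.13) in experiment 1 and by 1.74 (SE 0.18) and 1.70 (SE 0.20) in experiment 2. In Ago2KO input both were higher as well, Id4 by 0.80 (SE 0.20) and Id3 by 0.68 (SE 0.21), while Id1 fell by 0.64 (SE 0.12) and Bmp4 was lower.

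Pathway mRNAs beyond the ligands were also found on the beads. Tag-specific association called 56.9% of all genes in experiment 1 (28.1% higher) and 27.7% in experiment 2 (18.9% higher). Of 13 receptors and transducers it called 10 higher and 2 lower in experiment 1, and 8 higher and 1 lower in experiment 2. Of 9 modulators it called 4 higher and 2 lower, then 4 higher and 0 lower. Of Bmp branch genes it called 5 higher and 1 lower of 12, then 3 higher and 0 lower of 13. Of targets it called 4 higher and 1 lower of 7, then 4 higher and 0 lower of 9. Trim71-dependent association called Smad7, Pmepa1 and Bmpr2 lower in experiment 1, where 3.74% of all genes were called. It called 0 of these genes in experiment 2, where 1.49% were called. In Ago2KO cells, Ago2-dependent association was called for 4.16% of all genes. There 3 of the 13 receptors and transducers were called lower and 1 higher, and 2 of 9 modulators and 1 of 13 Bmp branch genes lower. Smad2, a receptor-activated Smad, fell by 0.60 (SE 0.10, adjusted p = 0.000219), Skil, a Smad corepressor, by 0.57 (SE 0.11, adjusted p = 0.00218), and its paralog Ski by 0.39 (SE 0.09, adjusted p = 0.0104). Tgif2, another corepressor, rose by 0.39 (SE 0.11, adjusted p = 0.0296). Furin, a protease that cleaves ligand precursors, fell by 0.61 (SE 0.12, adjusted p = 0.00187), the cargo receptor Tmed2 by 0.85 (SE 0.13, adjusted p = 0.000135), and Smad5, which acts below Bmp receptors, by 0.65 (SE 0.11, adjusted p = 0.000632).

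Across the 21 input libraries, with each experiment centred on its own mean, some members varied together. Pearson r was 0.90 between Lefty1 and Lefty2, 0.89 between Lefty2 and Inhbb, 0.85 between Lefty2 and Bmp4, 0.80 between Inhbb and Bmp4, 0.75 between Lefty1 and Inhbb, 0.73 between Inhbb and Tdgf1 and 0.66 between Lefty1 and Bmp4. Nodal and Gdf3 had an r of 0.83. The other pairs computed were lower, among them Nodal with Lefty1 (0.37), Lefty2 (0.23) and Inhbb (0.05). The points share genotype and library depth, and the values are descriptions. Among 11378 genes of sufficient level, those most like Lefty1 were Pdgfc (0.95), Cth (0.94) and Mras (0.94). For Nodal they were Tcea3 (0.85), Uchl1 (0.85) and Rnaseh2b (0.84), and for Inhbb Mybl2 (0.99), Slc6a8 (0.98) and Slco4a1 (0.98).

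The genes lie at separate loci apart from the Lefty pair. In GRCm38.p6, Lefty2 (chr1:180893108-180899107) and Lefty1 (chr1:180935022-180938401) are paralogs 35914 bases apart, and reads shared between such copies could be split or dropped by the counting, which is not stated. Inhbb lies at chr1:119415463-119422248, Nodal at chr10:61417972-61425338 and Bmp4 at chr14:46383525-46390669. Tdgf1 (chr9:110939608-110946158) has 2 annotated pseudogenes, neither with a row in the tables. Annotated long noncoding RNAs overlap Lefty1, Bmp4 and Fst, and whether strand was used in counting is not given in the sources used here, so values of these genes carry that uncertainty.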

How the data were processed

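RIP-seq was measured in input and IP libraries of the 14 groups named above. Per the labels' protocols, RNA came from cleared lysates and HA beads and was made into stranded total RNA libraries. The submitters' processing notes name STAR 2.7.3a, bcl2fastq 2.20 and GRCm38; the counting tool and annotation are not given in the sources used here. The authors deposited a table of raw counts by gene per experiment, with RPKM values beside them, which were not used for any test.

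Counts were tested with edgeR 4.0.16 (R 4.3.3): TMM scaling, filterByExpr (18772 and 19778 genes kept), a mean per group over all groups of an experiment, and the quasi-likelihood F test with Benjamini-Hochberg adjustment over all genes. Association contrasts are interactions of IP and input. Differences between experiments came from 1 joint fit of 18620 genes. The SE of a log2 change was taken as its size over the root of F. CPM used TMM-adjusted library sizes. The fit was tested on simulated data. Alternatives were RLE, library size alone, no filter, DESeq2 1.42.0, only the groups compared, replicate blocks and leaving out each library.

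The 9 genes were all named; of the pathway lists, up to 3 genes each way with the smallest adjusted p, called in both experiments for Trim71KO or in the Ago2KO comparisons, were named. Members and lists were chosen with earlier results of these data known. Titles gave the groups and descriptions the experiment. Replicates differed by more than sampling noise (chi-square per gene 2.87 to 64.1 over 42 pairs). Replicate numbers paired tagged with Trim71KO dishes in experiment 2, by correlations of their deviations of 0.18 to 0.33. They also paired tagged IP with tagged input there (0.10 to 0.18). In the other genotypes of experiment 2, and in all those of experiment 1, they did not pair IP with input. Of Gdf1, which has 2 rows, the row with more counts was used in its list.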

Additional observations from a re-analysis of the deposited data

Results flagged for a closer look

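Effects under the same contrast differed between conditions or experiments in 11 results, each by a test of the difference itself. In input RNA of experiment 2, the change in Trim71KO cells exceeded that in Ago2KO cells by 2.08 for Lefty2, 1.37 for Bmp4, 1.28 for Lefty1 and 0.68 for Inhbb (log2), and the difference was -0.27 for Gdf3.

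Between experiments (2 minus 1), tag-specific association of Inhbb differed by -1.72. The input change in Trim71KO cells differed by 0.98 for Lefty1, 0.78 for Lefty2, 0.67 for Bmp4, 0.42 for Nodal and 0.39 for Gdf3. Groups of 3 libraries are too small for a test of single outlying libraries.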

How the results depend on the processing

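Of 2307 values of single genes under the alternatives, 2196 kept their side of the threshold, 37 passed it newly and 74 lost it. No called value turned its sign, while 132 uncalled values did. The numbers of the 8 genes called changed by more than 1.5 times as follows. Input of tagged against untagged cells gave 2 in experiment 1 and 1 with library size alone or only the groups compared, and 1 in experiment 2 and 0 with no filter. Bead recovery in untagged cells of experiment 1 gave 3, but 1 with RLE, 8 with library size alone and 1 with either replicate block. Tag-specific association in experiment 2 gave 3, and 6 with library size alone. Its difference between experiments gave 1, and 2 with library size alone, DESeq2 or the replicate block within a fraction. Between the paired tagged and Trim71KO groups of experiment 2, the replicate block within a fraction changed no member's call.

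With 1 library left out at a time, the members called ranged, for experiment 1, from 4 to 5 (tag-specific association), 1 to 1 (Trim71-dependent), 0 to 2 (input, tagged), 4 to 5 (input, Trim71KO) and 1 to 1 (bead recovery). For experiment 2 they ranged from 3 to 4, 0 to 1, 0 to 0, 5 to 6 and 0 to 0 in that order, from 0 to 1 (Ago2-dependent), 0 to 0 (association, Trim71KO against Ago2KO), 3 to 4 (input, Ago2KO) and 4 to 5 (input, Trim71KO against Ago2KO). Differences between experiments ranged from 1 to 3 (tag-specific), 0 to 1 (Trim71-dependent) and 3 to 5 (input). Over all genes, Trim71-dependent calls in experiment 2 numbered 295, against 489 with library size alone, 548 with DESeq2, 136 with only the groups compared, and 470 and 522 with the replicate blocks. The causes were not tested.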
